A study of Mus musculus with 3 samples.

Results

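Pattern recognition receptors are the proteins by which macrophages sense microbial products and cell damage, and 50 genes for these receptors and for the signaling that follows them were examined in skin-resident macrophages of the mouse. The genes were taken by name and not by their signal: 15 Toll-like receptors and their accessory proteins, 9 cytosolic receptors (Aim2 and members of the NOD-like family), 11 adaptors and proximal kinases, and 15 genes of the NF-κB and interferon regulatory factor step. All 50 were on the array, with 64 probes, out of 19738 genes that could be named. The macrophages had been sorted as CD11b+Gr1-F4/80+ cells from the backskin of CD1 mice, with no genetic change or treatment given in the labels. By the labels they came from postnatal day 42 (P42), day 55 (P55), and day 69 (P69). The paper assigns its arrays to early, mid, and late stages of the resting phase (telogen) of the second hair cycle. It gives its youngest mice a slightly later day than the label and has this telogen start around that day. Whether mice of the labeled day had reached early telogen is therefore not settled. RNA of 3 littermates was pooled for each age and hybridized to 1 array per age, so each value below is that of 1 array, the ages could not be tested against each other and p-values are absent.

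Toll-like receptors recognize lipids and proteins of microbes at the cell surface and nucleic acids within endosomes, and their accessory proteins help them to bind ligand or to reach the right membrane. NOD-like receptors and AIM2 lie in the cytosol, where several of them assemble inflammasomes that activate caspase. The adaptors MyD88, TIRAP, TRIF, and TRAM pass the signal of Toll-like receptors to kinases of the IRAK family, and the IKK complex then releases NF-κB from its inhibitors. In skin, macrophages that carry these receptors take part in defense against bacteria and in the response to wounding.

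The assignment of the later arrays to ages was not the same in all deposited files. The P55 column of the authors' table of processed values matched the scanner file of P69, with a residual SD of 0.0044 (log2) over 36380 probes, and its P69 column matched the scanner file of P55, with a residual SD of 0.0057. Columns and scanner files of the same name had a residual SD of 1.2919. The arrays are called here by the age that the labels give to their scanner file. Both later arrays are set against P42 throughout, and the exchange of their names would exchange their values and turn the sign of each difference between them. All 3 arrays lay on 1 slide. Between 59.66% and 71.4% of the probes were well above background on an array, and no spot was saturated. Levels are log2 signals minus the 75th percentile of the same array, so that a level of 0 lies at that percentile and a difference of 1 is a 2-fold difference. Repeated spots of a probe gave a difference from P42 an SD of 0.166 for P55 and 0.174 for P69 (log2), an error that leaves out the variation between mice, sorts, and amplifications.

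Of the 50 genes, 48 were well above background on all 3 arrays (96.0%), compared to 66.3% of all named genes. The exceptions were Tlr3, which was not well above background on the P69 array, and Tlr4, which was not on the P55 array. Most of the genes differed from P42 by less than 2-fold. In bulk samples such as these, fewer cells of a type and less RNA of a gene per cell cannot be told apart. On the P55 array 11 of the 50 genes were at least 2-fold higher than at P42 and 4 at least 2-fold lower, which is 22% and 8.0% of them, where 29.2% and 16.9% of all genes with a value were higher and lower by that much. On the P69 array 7 genes were at least 2-fold higher (14.0%) and 6 at least 2-fold lower (12.0%), against 22.2% and 20.7% of all genes. The median log2 difference of the 50 genes was 0.24 on the P55 array, where that of all genes was 0.23, and 0.345 on the P69 array, where that of all genes was 0.15.

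The split between higher and lower genes followed the scaling. With the 75th percentile taken over the probes detected on all arrays, 7 genes were higher and 10 lower on the P55 array and 6 were higher and 8 lower on the P69 array. With scaling to the median of each array, the numbers were 22 and 2 on the P55 array and 18 and 4 on the P69 array. The median of all genes moved with the scaling as well, from -0.16 to 0.86 on the P55 array and from -0.06 to 0.65 on the P69 array. Counted relative to the median of all genes in the scaling used here, 9 of the 50 genes were at least 2-fold higher and 8 at least 2-fold lower on the P55 array, and 6 and 7 on the P69 array. The sign of the difference from P42 itself turned under at least 1 other scaling, filter, or probe rule for 18 genes on the P55 array, none of which differed by more than 0.37, and for 11 genes on the P69 array, none of which differed by more than 0.64. Of the genes at least 2-fold from P42, 4 of the 11 higher on the P55 array (Tlr12, Cd180, Aim2, and Mavs) and 2 of the 4 lower (Tlr7 and Nfkbiz) kept that size under all of these alternatives that gave them a value. On the P69 array, 3 of the 7 higher (Cd180, Aim2, and Mavs) and 3 of the 6 lower (Tlr3, Tlr11, and Nfkbiz) did.

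**Figure D1:**
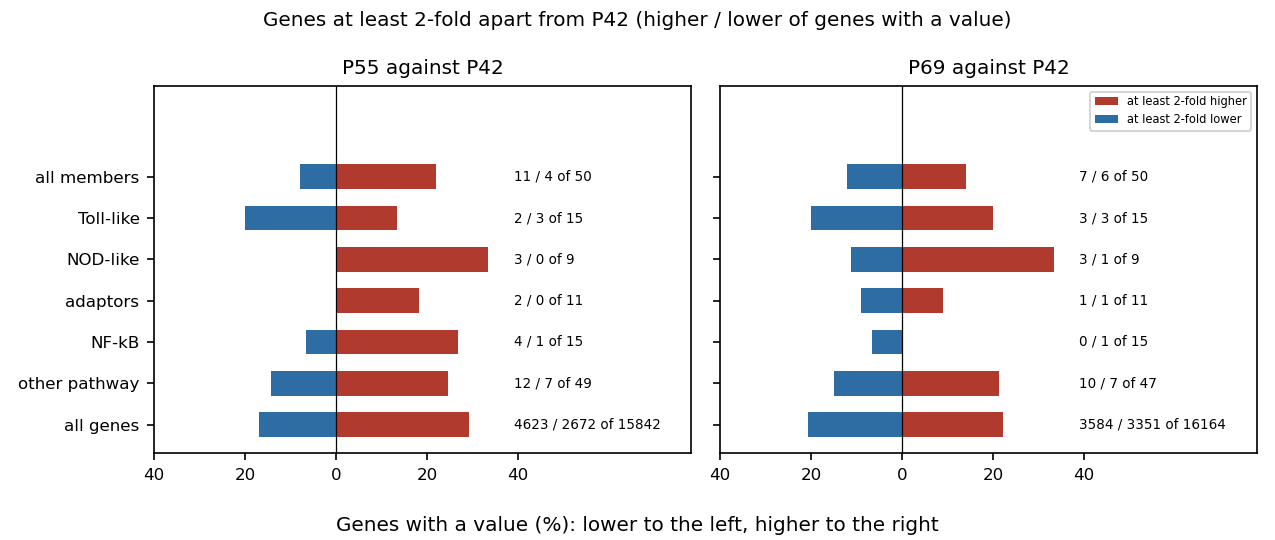
Percent of genes at least 2-fold higher (right) or lower (left) than on the P42 array, for the 50 genes, their 4 groups, a list of other genes of the same pathways, and all genes, with the numbers of genes beside the bars (1 array per age). The 50 genes reach 22% higher and 8.0% lower on the P55 array, below the 29.2% and 16.9% of all genes.

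Against the 10-fold threshold that the methods of the study give, 1 of the 50 genes passed, Tlr11 on the P69 array, and none passed on the P55 array. Over the scalings, filters, and probe rules, its log2 difference lay between -3.57 and -2.40, and it fell short of 10-fold with normexp correction, median scaling, and quantile normalization. Of all genes, 1.13% were at least 10-fold higher and 0.316% at least 10-fold lower on the P55 array, and 0.668% and 0.458% on the P69 array. Both later arrays share the P42 array as their reference, so that a low or high signal on that array enters both differences. With this shared reference, 5 genes were at least 2-fold higher than at P42 on both later arrays, Tlr12, Cd180, Nlrp10, Aim2, and Mavs, and 1 gene, Nfkbiz, was at least 2-fold lower on both. These are 10% and 2% of the 50 genes, and 16.6% and 11.3% of all genes with both differences met the same limits. The signs of the differences were above 0 on both arrays for 30 of the 50 genes, below 0 on both for 12, and opposite for 8.

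Marker genes were used to see what the sorted samples held. The macrophage list had 15 genes on the array, and all 15 were well above background on all 3 arrays, with a median difference of -0.22 on the P55 array and -0.42 on the P69 array and a summed signal of 1132, 1075, and 693 times the 75th percentile at P42, P55, and P69. Without the probe of Itgam this sum was 637, 651, and 462, and the summed signal of all genes was 110398, 117510, and 77871. Of 14 keratinocyte markers on the array, 12 were at least 2-fold higher than at P42 on both later arrays, with medians of 3.33 and 3.15, and 13 were well above background at P42, where Dsg1a was the exception. Their summed signal was 272, 396, and 263, of which the single probe of Trp63 made most. Without it the sum was 10.9, 132, and 99.8. Of the 7 Langerhans and dendritic cell markers on the array, 3 (Cd207, Epcam, and Itgax) were at least 2-fold higher on both later arrays and 3 (Flt3, Xcr1, and Cd209a) were below P42 on both, with medians of 0.22 and -0.91, the 7 were well above background on all arrays, and their summed signal was 47.7, 165, and 99.5. The 6 markers of B cells and plasmacytoid dendritic cells with a value were below P42 on both arrays, with medians of -0.44 and -0.83. At least 2-fold higher on both arrays were also 3 of 5 melanocyte markers, 2 of 7 T cell markers (1 lower), and 2 of 6 neutrophil markers. The melanocyte markers Tyr and Mlana were below P42 on the P69 array (-0.998 and -1.513). Of 9 fibroblast markers, 1 was higher and 2 were lower. Of 8 endothelial markers, 4 were at least 2-fold lower and 0 higher on the P55 array, and 1 was lower and 1 higher on the P69 array. Their medians were -0.98 and -0.08. The 6 mast cell markers with a value had medians of -0.48 and 0.10. The 12 keratinocyte markers (not Ivl and Trp63), Cd207, Epcam, Itgax, and some melanocyte, T cell, neutrophil, and fibroblast markers were thus higher on both later arrays. So were Tlr12, Cd180, Nlrp10, Aim2, and Mavs. Their part in these differences was not tested.

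Sequences around the start sites are shown for genes higher than P42 on both later arrays and for 2 genes within 2-fold of it, to set the letters of the DNA beside the arrays. The windows are those of RefSeq (GRCm38.p6), from 250 bases before to 50 bases after each annotated start, and 39 of the 50 genes had at least 1 window, for a total of 55. Among the genes higher on both later arrays, Aim2, Cd180, Tlr12, and Mavs had an entry, and Nlrp10, like Nfkbiz, had none. Tlr2 and Nfkbia are shown beside them because their windows hold letters that resemble sites of NF-κB and because both differed from P42 by less than 2-fold on both arrays in the scaling used here. Each is written 5′ to 3′ on the strand of the gene, and capitals mark the matches to the motifs named after them.
Aim2, chr1:173420354-173420653, plus strand: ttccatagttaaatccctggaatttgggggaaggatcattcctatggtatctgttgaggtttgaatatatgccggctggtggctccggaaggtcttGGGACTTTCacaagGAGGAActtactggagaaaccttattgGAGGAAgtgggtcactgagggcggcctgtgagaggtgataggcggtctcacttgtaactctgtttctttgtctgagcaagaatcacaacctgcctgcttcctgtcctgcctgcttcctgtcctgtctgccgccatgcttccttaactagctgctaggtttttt
Cd180, chr13:102693297-102693596, plus strand: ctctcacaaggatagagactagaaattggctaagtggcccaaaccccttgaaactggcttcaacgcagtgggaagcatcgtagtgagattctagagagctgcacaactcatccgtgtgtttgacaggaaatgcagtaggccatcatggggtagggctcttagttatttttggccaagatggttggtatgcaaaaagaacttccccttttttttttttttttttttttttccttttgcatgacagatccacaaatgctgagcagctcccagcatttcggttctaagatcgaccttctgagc
Tlr12, chr4:128618570-128618869, minus strand: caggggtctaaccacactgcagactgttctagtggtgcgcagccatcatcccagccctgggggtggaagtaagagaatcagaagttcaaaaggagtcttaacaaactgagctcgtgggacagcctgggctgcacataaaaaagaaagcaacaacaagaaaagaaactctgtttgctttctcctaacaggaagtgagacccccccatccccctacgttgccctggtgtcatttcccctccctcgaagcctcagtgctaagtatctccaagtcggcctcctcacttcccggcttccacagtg
Mavs, chr2:131233813-131234112, plus strand: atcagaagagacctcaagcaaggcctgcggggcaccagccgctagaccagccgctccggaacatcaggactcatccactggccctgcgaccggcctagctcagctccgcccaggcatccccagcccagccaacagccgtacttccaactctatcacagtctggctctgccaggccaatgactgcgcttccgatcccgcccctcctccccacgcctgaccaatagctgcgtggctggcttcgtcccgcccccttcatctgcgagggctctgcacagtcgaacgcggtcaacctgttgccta
Tlr2, chr3:83841559-83841858, minus strand: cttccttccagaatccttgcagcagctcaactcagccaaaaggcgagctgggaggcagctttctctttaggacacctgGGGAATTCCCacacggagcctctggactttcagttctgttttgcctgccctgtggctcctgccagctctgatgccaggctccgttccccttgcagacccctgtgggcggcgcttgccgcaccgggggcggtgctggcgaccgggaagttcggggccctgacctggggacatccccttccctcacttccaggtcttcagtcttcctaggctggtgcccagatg
Nfkbia, chr12:55492598-55492897, minus strand: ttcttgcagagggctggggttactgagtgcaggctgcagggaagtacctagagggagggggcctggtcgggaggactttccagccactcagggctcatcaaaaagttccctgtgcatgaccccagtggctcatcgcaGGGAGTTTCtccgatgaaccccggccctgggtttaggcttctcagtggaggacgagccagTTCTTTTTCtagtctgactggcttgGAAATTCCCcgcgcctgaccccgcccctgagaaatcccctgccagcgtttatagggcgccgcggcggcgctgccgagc

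The motifs searched on both strands were the core of a κB site written as GGGANTTNC, the core of an interferon-stimulated response element written as GAAANNGAA, and the PU-box GAGGAA, to which the myeloid factor PU.1 binds. In the windows shown, no match of a motif overlapped a match of another. The Aim2 window holds a κB core that starts at -154 from the start site, and PU-boxes at -140 and -113. The Tlr2 window holds 2 κB cores that overlap each other, at -172 and, on the other strand, at -171. The Nfkbia window holds κB cores at -113 and -28 and the interferon-response letters at -53. The windows of Cd180, Tlr12, and Mavs hold none of these letters, which says only that they are not in these windows. Over all 55 windows of the examined genes, 12 held the κB core, 7 the interferon-response core, and 14 the PU-box. Over 32851 windows of all mouse genes in the table, these letters were present in 4.26%, 8.56%, and 28.28%. Several genes have more than 1 window, and such windows can overlap.

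Among the 12 Toll-like receptors, 1 was at least 2-fold higher and 2 were at least 2-fold lower on the P55 array, and 2 were higher and 3 lower on the P69 array. These are 8.33% and 16.7% on the P55 array, where all genes had 29.2% and 16.9%. For the P69 array they are 16.7% and 25.0%, where all genes had 22.2% and 20.7%. Tlr12 was higher than at P42 on both arrays and Tlr11 was lower on the P69 array; both encode endosomal receptors of the mouse that recognize profilin of protozoa. Tlr2 and Ly96, which detect bacterial lipopeptides and, with TLR4, lipopolysaccharide, differed from P42 by less than 2-fold. The accessory gene Cd180 had the largest difference from P42 on the P55 array among the 50 genes.

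The level of Tlr12 was -2.44 on the P42 array, 0.25 on the P55 array, and -0.90 on the P69 array. It was thus 6.44-fold higher than at P42 on the P55 array (log2 difference 2.69) and 2.90-fold higher on the P69 array (1.53). With normexp background correction its difference on the P69 array was 0.90, just short of 2-fold. The level of Tlr11 was -0.60 at P42, -0.86 at P55, and -3.96 at P69, which was 10.3-fold lower on the P69 array than at P42 (log2 difference -3.36), whereas the P55 array differed from P42 by -0.26. On the P69 array Tlr11 lay 1.05 log2 units above the lowest signal that counted as well above background.

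Cd180 encodes a relative of TLR4 on the surface of B cells and myeloid cells, and Ly86 encodes the protein that partners it. The level of Cd180 was -3.20 at P42, -0.41 at P55, and -0.94 at P69, so that both later arrays were higher, by 6.94-fold (2.79) and 4.80-fold (2.26). Ly86 had levels of 1.27, -0.02, and 1.49, and was 2.45-fold lower on the P55 array (-1.29) and within 2-fold of P42 on the P69 array (0.21). The pair therefore differed from P42 in opposite directions on the P55 array. At P42 the Cd180 probe lay 1.24 log2 units above the lowest signal well above background, and with normexp correction its differences from P42 were still above 2-fold on both arrays, the lowest values over the scalings, filters, and probe rules being 1.74 and 1.22.

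The receptors of nucleic acids in endosomes did not share a direction. Tlr9, the receptor of unmethylated CpG DNA, had levels of 3.84, 2.98, and 2.74 on the P42, P55, and P69 arrays, and was 1.82-fold (-0.86) and 2.14-fold lower (-1.10) on the later arrays. Tlr7, the receptor of single-stranded RNA, had levels of 0.63, -1.72, and 0.59, so that the P55 array was 5.12-fold lower than P42 (-2.36) and the P69 array was at the level of P42 (-0.04). The second probe of Tlr7 read -1.48, -2.17, and -1.89, and its difference on the P55 array was smaller, at -0.69. Tlr3, the receptor of double-stranded RNA, was 0.49 above P42 on the P55 array and at least 3.74-fold lower on the P69 array, where its signal was not well above background. Tlr8 differed by 0.18 and 0.25, and Tlr13, a receptor of bacterial ribosomal RNA, was 0.21 above P42 on the P55 array and 2.04-fold higher on the P69 array (1.03).

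At the cell surface, Tlr2 had levels of 0.82, 1.67, and 1.48, which were 0.85 and 0.66 above P42 on the later arrays. Its partners Tlr1 and Tlr6, which pair with TLR2 to bind lipopeptides, were 0.07 and 0.71 above P42 on the P55 array and 0.87 and 0.56 above it on the P69 array. All 6 of these differences were above 0 and short of 2-fold, and that of Tlr1 on the P55 array was within the error of repeated spots. The levels of Tlr4, the receptor of lipopolysaccharide, were -3.26 at P42 and -3.24 at P69, and the signal on the P55 array was not well above background, which gave a difference of at least 1.72-fold lower. Ly96, the coreceptor through which TLR4 binds lipopolysaccharide, had levels of 0.71, 1.17, and 1.44 and was 0.46 and 0.73 above P42. Tlr5, the receptor of flagellin, was 2.19-fold lower on the P55 array (-1.13) and 0.36 below P42 on the P69 array.

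**Figure D2:**
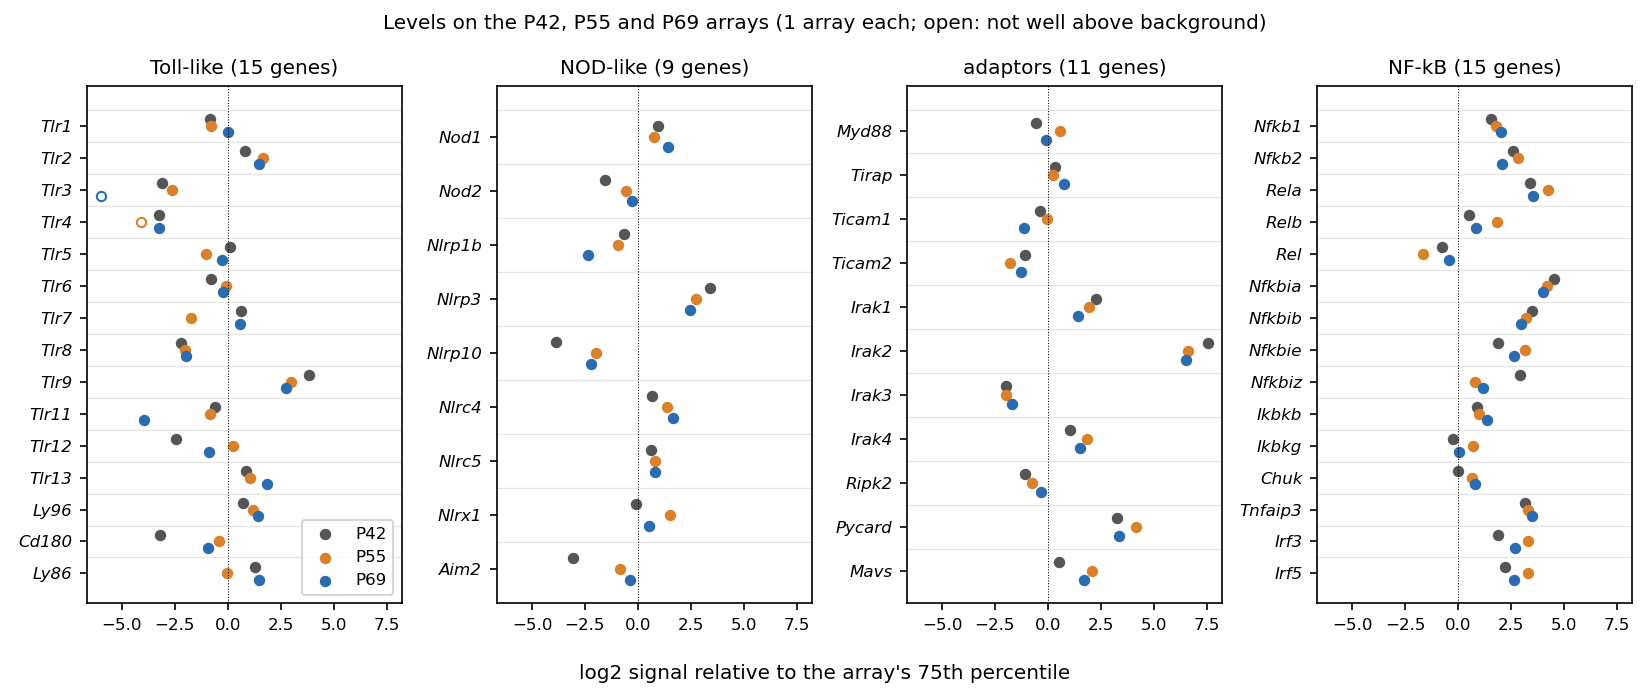
Log2 level (signal minus the 75th percentile of the array) for each of the 50 genes by its brightest probe on the P42, P55, and P69 arrays (1 array per age; open circles, not well above background). The P42 array is the lowest of the 3 for 30 of the 50 genes, among them Tlr12, Cd180, Nlrp10, Aim2, and Mavs. It is the highest for 12, among them Nfkbiz. For Tlr7 the P55 array and for Tlr11 the P69 array stands apart.

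Of the 9 cytosolic receptors, 3 were at least 2-fold higher on the P55 array and none was at least 2-fold lower, and 3 were higher and 1 lower on the P69 array. The share of higher genes was 33.3% on both arrays, where all genes had 29.2% and 22.2%. Lower genes made 11.1% on the P69 array, and 16.9% and 20.7% of all genes were lower on the P55 and P69 arrays. Aim2 and Nlrp10 were higher on both arrays. Nlrp3 was lower on both by its brightest probe, short of 2-fold. The median log2 difference of the group was 0.68 on the P55 array and 0.64 on the P69 array, where all genes had 0.23 and 0.15.

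Aim2 encodes a sensor of cytosolic double-stranded DNA that builds an inflammasome and is not itself a NOD-like receptor. Its level was -3.08 at P42, -0.87 at P55, and -0.37 at P69, so that it was 4.65-fold higher on the P55 array (2.22) and 6.55-fold higher on the P69 array (2.71). This was the largest increase over P42 of the 50 genes on the P69 array. Nlrp10 encodes a NOD-like receptor that lacks the leucine-rich repeats of the family, and its levels were -3.85, -1.96, and -2.23. It was 3.69-fold (1.88) and 3.06-fold higher (1.61) than at P42 on the later arrays. At P42 both genes were dim: the Nlrp10 probe lay 0.60 and the Aim2 probe 1.36 log2 units above the lowest signal well above background. With normexp background correction the differences of Nlrp10 were 0.79 and 0.48, no longer 2-fold, and those of Aim2 were 1.10 and 1.51.

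Nod2 encodes a sensor of muramyl dipeptide from the bacterial cell wall, and its levels were -1.55, -0.55, and -0.29. It was 0.997 above P42 on the P55 array, just under 2-fold, and 2.40-fold higher on the P69 array (1.26). Nod1, its relative for peptidoglycan of Gram-negative bacteria, differed by -0.16 and 0.46. Nlrp3, the core of an inflammasome that answers many signs of cell damage, had levels of 3.39, 2.74, and 2.46, a difference of -0.65 and -0.93 from P42. Nlrc4, which builds an inflammasome with NAIP proteins on bacterial flagellin, was 0.68 and 0.97 above P42. The second probe of Nlrp3 differed by -0.14 and 0.03, within the error of repeated spots, so that the difference rested on the brightest probe.

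The other NOD-like genes depended on the array or on the probe. Nlrx1, which encodes a mitochondrial member of the family, was 3.06-fold higher on the P55 array (1.61) and 0.64 above P42 on the P69 array by its brightest probe, and its second probe, designed on another transcript, differed by -1.34 and -1.87. Nlrp1b, for an inflammasome receptor with close paralogs in the mouse that a probe may share, differed by -0.30 on the P55 array and was 3.18-fold lower on the P69 array (-1.67), and its second probe was 0.82 and 0.68 above P42. Nlrc5, a regulator of MHC class I genes, was 0.20 above P42 on both arrays by its brightest probe.

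**Figure D3:**
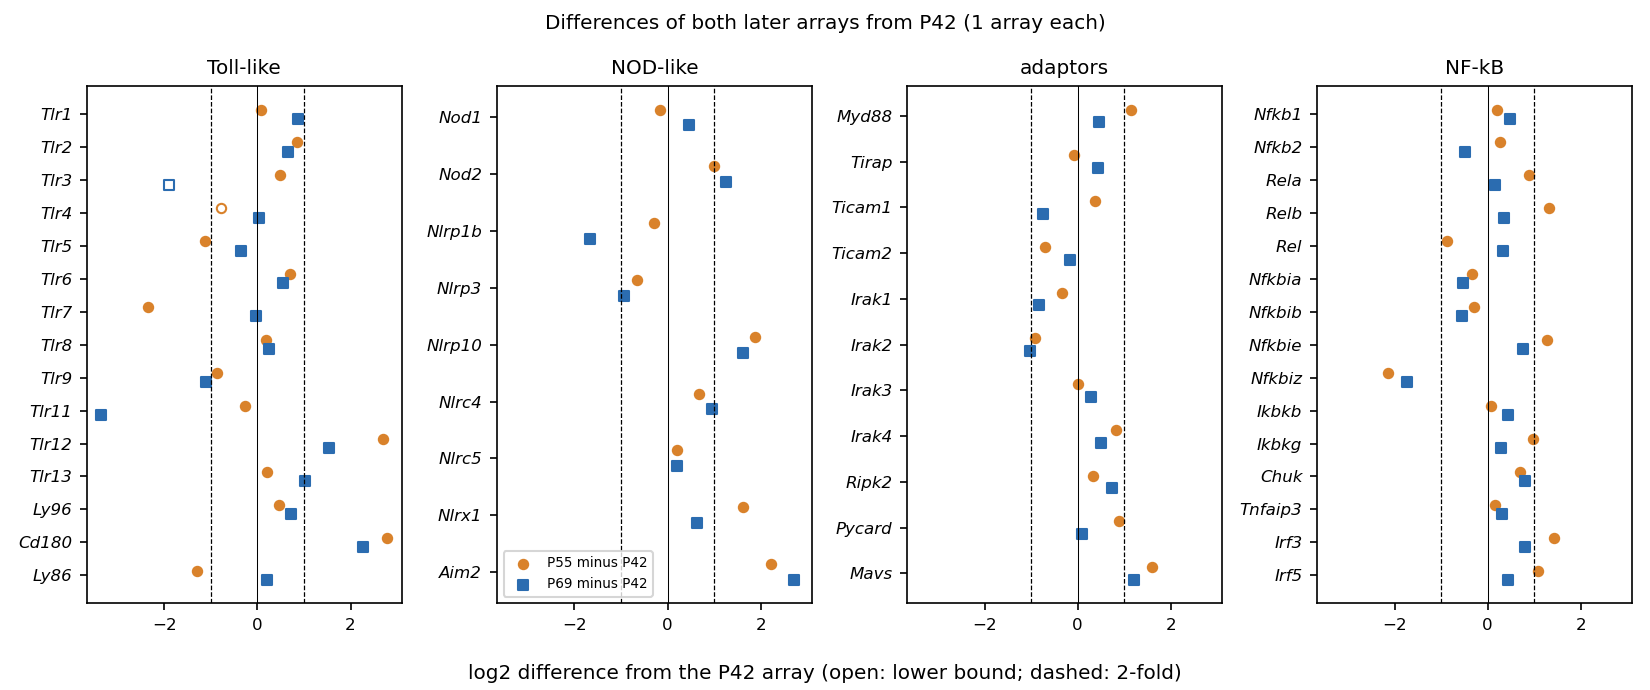
Log2 difference of the P55 array (circles) and of the P69 array (squares) from the P42 array for each of the 50 genes, by group (1 array per age; dashed lines, 2-fold; open symbols, lower bounds). Tlr12, Cd180, Nlrp10, Aim2, and Mavs lie to the right of the 2-fold line on both arrays, and Nfkbiz lies to the left of it on both.

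Of the 11 adaptors and kinases, 2 were at least 2-fold higher and none was lower on the P55 array, and 1 was higher and 1 lower on the P69 array. The higher share of 18.2% on the P55 array stands beside 29.2% of all genes, of which 16.9% were lower. On the P69 array both shares were 9.09%, where all genes had 22.2% and 20.7%. Mavs was the gene higher on both. It encodes the mitochondrial adaptor of RNA helicases of the RIG-I family, which sense viral RNA in the cytosol. Its levels were 0.50 at P42, 2.09 at P55, and 1.72 at P69, which were 3.02-fold (1.59) and 2.33-fold (1.22) above P42, and its signal at P42 lay 4.94 log2 units above the lowest signal well above background. Its difference from P42 stayed at 2-fold or more on both arrays under all scalings, filters, and probe rules tried, between 1.22 and 2.15 on the P55 array and between 1.01 and 1.74 on the P69 array.

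Myd88 encodes the adaptor used by nearly all Toll-like receptors. Its levels were -0.58, 0.56, and -0.11, so that it was 2.21-fold higher on the P55 array (1.14) and 0.47 above P42 on the P69 array. The bridging adaptor Tirap differed by -0.08 and 0.44 and Ticam2, which bridges TLR4 to TRIF, by -0.70 and -0.17. Ticam1, the gene of TRIF itself, was 0.37 above P42 on the P55 array and 0.74 below it on the P69 array, so that the arrays lay on opposite sides of P42. Pycard, the adaptor ASC that links inflammasome receptors to caspase, had levels of 3.26, 4.16, and 3.36 and was 0.90 and 0.09 above P42.

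Of the kinases, Irak2 had levels of 7.54, 6.64, and 6.52 and was 1.88-fold (-0.91) and 2.04-fold lower (-1.03) than at P42. Its second probe read 0.51, 0.56, and 0.34 and differed by 0.05 and -0.17, so that the difference rested on the brightest probe. Irak1 differed by -0.33 and -0.83 and Irak4, the kinase that starts the cascade, was 0.82 and 0.49 above P42 by its brightest probe and differed by -0.43 and 0.04 by its second. Irak3, an inhibitory member of the family that is expressed in macrophages, differed by 0.01 and 0.28. Ripk2, the kinase of NOD1 and NOD2, was 0.32 and 0.75 above P42.

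In the NF-κB and interferon regulatory factor group, 4 of 15 genes were at least 2-fold higher and 1 was lower on the P55 array, and none was higher and 1 was lower on the P69 array. The shares on the P55 array were 26.7% and 6.67%, near and below the 29.2% and 16.9% of all genes. On the P69 array 6.67% were lower, where 22.2% of all genes were higher and 20.7% lower. The subunits of NF-κB and the classical inhibitor Nfkbia were within 2-fold of P42 on both arrays by their brightest probes, apart from Relb on the P55 array. Nfkbiz was the gene lower on both arrays. Relb, Nfkbie, Irf3, and Irf5 were at least 2-fold higher on the P55 array and short of 2-fold on the P69 array. Each of these 4 fell short of 2-fold on the P55 array under at least 1 other scaling, with lowest differences of 0.94, 0.77, 0.91, and 0.57, respectively.

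Nfkbiz encodes a nuclear member of the IκB family that is induced by Toll-like receptor signals and takes part in the transcription of secondary response genes. Its level was 2.92 at P42, 0.78 at P55, and 1.19 at P69. It was 4.42-fold lower on the P55 array (-2.14) and 3.32-fold lower on the P69 array (-1.73), and the later arrays differed from each other by 0.41. All 3 signals were bright, the dimmest lying 4.82 log2 units above the lowest signal well above background. The difference was beyond 2-fold on both arrays under all scalings, filters, and probe rules tried, between -2.52 and -1.59 for P55 and between -1.97 and -1.21 for P69.

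The remaining inhibitors were within 2-fold of P42 on both arrays, apart from Nfkbie on the P55 array. Nfkbia, which NF-κB induces and which ends its own signal, had levels of 4.55, 4.20, and 4.01 and differed by -0.34 and -0.54, the first of which turned to 0.21 under median scaling. Nfkbib differed by -0.29 and -0.55 by its brightest probe. Its other probes differed by 0.24 and -0.82, and by -0.01 and -0.80. Nfkbie had levels of 1.87, 3.15, and 2.63 and was 2.41-fold higher on the P55 array (1.27) and 0.75 above P42 on the P69 array. Tnfaip3, the ubiquitin-editing enzyme that limits NF-κB signaling, had levels of 3.17, 3.32, and 3.48 and was 0.16 and 0.31 above P42.

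Among the subunits, Rela had levels of 3.39, 4.28, and 3.55 and was 0.88 and 0.15 above P42. Nfkb1 had levels of 1.57, 1.78, and 2.04 and was 0.21 and 0.47 above P42 by its brightest probe, whereas its second, dimmer probe read -2.50, -0.22, and -0.12 and was 2.28 and 2.38 above P42. With the median over its probes, Nfkb1 was 1.25 and 1.42 above P42 and was at least 2-fold higher on both arrays. Nfkb2, the precursor of the noncanonical pathway, differed by 0.26 and -0.50. Its partner Relb had levels of 0.51, 1.82, and 0.87 and was 2.49-fold higher on the P55 array (1.31) and 0.36 above P42 on the P69 array. Rel was 0.88 below P42 on the P55 array and 0.33 above it on the P69 array.

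The 3 genes of the IKK complex were within 2-fold of P42 on both arrays. Ikbkb, a catalytic subunit, differed by 0.08 and 0.44, and Chuk, the other catalytic subunit, by 0.69 and 0.81. Ikbkg, the regulatory subunit, differed by 0.97 and 0.29 by its brightest probe and by -0.04 and -0.41 by its second. The interferon regulatory factors were higher on the P55 array: Irf3, which acts downstream of TRIF and MAVS, had levels of 1.90, 3.32, and 2.70 with differences of 1.42 and 0.80. Irf5, which acts downstream of MyD88, had levels of 2.20, 3.29, and 2.63 with differences of 1.09 and 0.43.

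Several genes were measured by more than 1 probe, and these probes did not always move together. Of the 12 such genes, 6 had probes with opposite differences from P42 beyond the error of repeated spots on the P55 array, and 5 on the P69 array. Probes of 1 gene can lie on different transcripts or different parts of the same transcript, and which of them bears on these differences was not tested. Besides Nlrx1, Nlrp1b, and Irak2, the second probe of Nlrc5 differed from P42 by -0.88 and -2.08, and the 3 probes of Irak1 differed by -0.33, 0.42, and -1.19 on the P55 array. The probes of Relb moved the same way, with 1.31 and 1.86 on the P55 array. Tlr12, Cd180, Nlrp10, Aim2, Mavs, and Nfkbiz each had 1 probe, so no second probe could be set beside their differences.

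**Figure D4:**
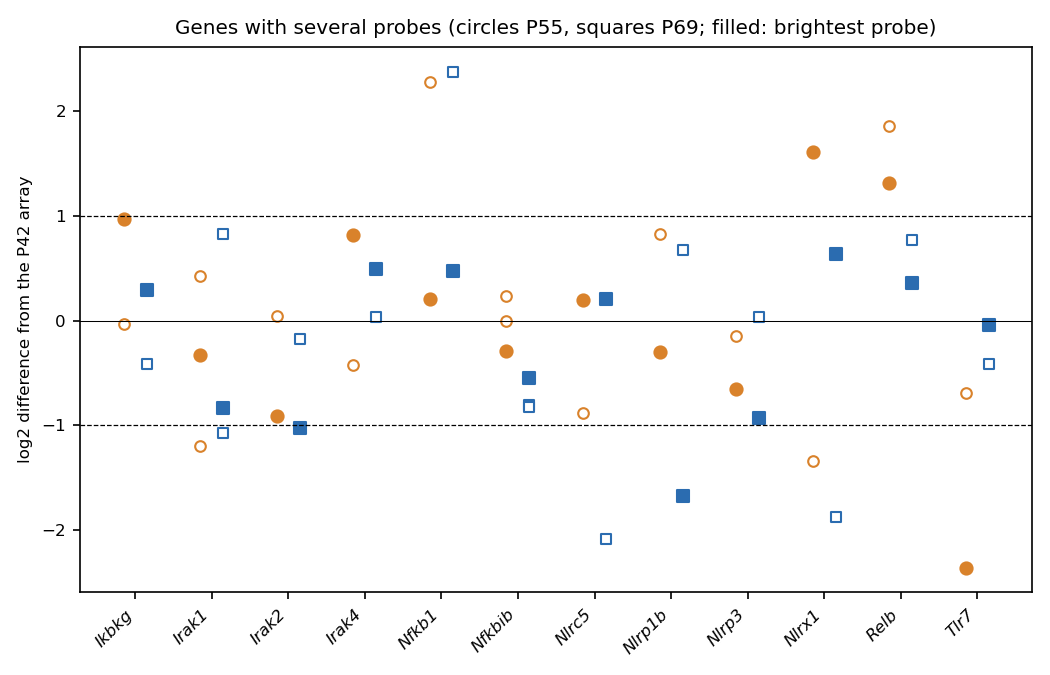
Log2 difference from the P42 array of each probe of the 12 genes with more than 1 probe (circles, P55; squares, P69; filled, the brightest probe, which stands for the gene elsewhere; dashed lines, 2-fold). The probes of Nlrx1 lie on opposite sides of 0 on both arrays (1.61 and -1.34 on P55), and the dimmer probe of Nfkb1 lies above 2-fold on both while the brightest does not.

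Between the later arrays, 3 of the 50 genes were at least 2-fold higher on the P69 array than on the P55 array and 5 were at least 2-fold lower, and 7.84% and 11.3% of all genes with a value were higher and lower by that much. The genes higher on the array named P69 were Tlr7 (2.32), Ly86 (1.51), and Rel (1.21). The genes lower on it were Tlr11 (-3.10), Tlr3 (at least 5.25-fold), Nlrp1b (-1.37), Tlr12 (-1.15), and Ticam1 (-1.11). By their second probes Tlr7 differed by 0.28 and Nlrp1b by -0.15, the latter within the SD of repeated spots for this comparison (0.161). These signs hold for the scanner files as assigned in the labels, and turn with the assignment of the authors' table. The median log2 difference between the later arrays was -0.17 for the 50 genes and -0.15 for all genes.

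Other genes of the same pathways were taken from a list of 50, of which 49 were on the array. Of these, 12 were at least 2-fold higher and 7 at least 2-fold lower on the P55 array, and 10 and 7 on the P69 array, with medians of 0.24 and 0.15. As shares of the genes with a value these are 24.5% and 14.3% on the P55 array, against 29.2% and 16.9% of all genes. The P69 array had 21.3% and 14.9%, against 22.2% and 20.7%. On both later arrays, 6 of 47 were at least 2-fold higher (12.8%) and 4 were at least 2-fold lower (8.51%), where 16.6% and 11.3% of all genes were. The genes higher on both included the 3 members of the complex that carries the signal of C-type lectin receptors. Card9 had levels of 0.89, 3.36, and 2.90 with differences of 2.46 and 2.01, Bcl10 differed by 1.80 and 1.87, and Malt1 by 1.37 and 1.89. Ddx58, which encodes the RNA helicase RIG-I upstream of MAVS, had levels of -0.41, 1.36, and 1.97 and was 1.77 and 2.38 above P42. These genes were higher on the same arrays as most keratinocyte markers and some markers of other cell types, whose part was not tested. The further genes higher on both were Tab1 (1.70 and 1.39), for a partner of the kinase TAK1, and Tnip1 (2.48 and 1.40), for a partner of the protein of Tnfaip3.

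The 4 genes lower on both made 8.51%, where all genes had 11.3%. They included Gsdmd and Casp4, which act in pyroptosis, the lytic death that follows inflammasome activation. Gsdmd, for the pore-forming protein gasdermin D, had levels of 2.56, 1.29, and 1.23 with differences of -1.28 and -1.34. Casp4, for the caspase that cuts it after sensing cytosolic lipopolysaccharide, differed by -1.83 and -1.36. Casp1, of the same list, differed by only -0.07 and 0.47. Of the inflammasome genes above, Pycard, Aim2, and Nlrc4 were above P42 on both arrays. Nlrp3 and Nlrp1b were below it on both by their brightest probes. Nlrc3, a NOD-like gene described as an inhibitor, differed by -1.32 and -1.48. Tnip3, of the same family as Tnip1, differed by -2.04 and -1.75, so that these relatives lay on opposite sides of P42.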

How the data were processed

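Macrophage RNA was amplified (TransPlex WTA2), labeled with Cy3, and hybridized to Agilent mouse G3 8x60K arrays, which the authors quantified with Feature Extraction 10.7.3.1. They deposited the spot intensity of each array on a linear scale, background-corrected by that software and not normalized between arrays, and a table of processed log2 values, centered for each probe, whose normalization is not given in the sources used here. Ages are those of the labels, and the paper places the youngest mice at a slightly later day.

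From the deposited intensities, control spots and spots marked as outliers were left out, the processed signals of the spots of each probe were averaged, divided by the 75th percentile of the array, and put on the log2 scale. A probe counted as well above background where at least 0.5 of its spots did by the software. With 1 of the 2 arrays well above background, the difference is a lower bound against the lowest signal well above background or the dim probe's own, whichever was higher. Probes were named through RefSeq transcripts (GRCm38.p6), 26056 of 55618, and the probe with the highest mean signal stood for its gene. Signals of different probes do not rank transcripts.

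The 50 genes, the list of other pathway genes, and the marker lists were chosen with earlier results of these data known. Values on each array are given for genes at least 2-fold from P42 in the same direction on both later arrays, for the gene with the highest signal of each group (Tlr9, Nlrp3, Irak2, and Nfkbia), and for Tlr2, Tlr4, Tlr7, Ly96, Nod2, Nlrp10, Myd88, Pycard, Nfkb1, and Rela. The values of other genes were singled out after they were seen. A change was counted at 2-fold, and no test was made. Alternatives were other scalings, normexp background correction (limma 3.58.1, offset 50), other filters on dim and outlier spots, the median over probes, the later arrays exchanged, the authors' log2 table, and the 10-fold threshold of the methods. The steps were tested on simulated data. Python 3.11.15, numpy 2.4.6, pandas 2.3.3, and R 4.3.3 were used.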

Additional observations from a re-analysis of the deposited data

Results flagged for a closer look

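Tlr3 and Ticam1 lay on opposite sides of the P42 array on the later arrays, each by more than 2 SDs of repeated spots. Tlr3 was 0.491 above P42 on the P55 array (log2) and at least 1.902 below it on the P69 array, with a difference of -1.902 as a bound because its signal there was not well above background. Ticam1 was 0.373 above P42 on the P55 array, and its difference on the P69 array was -0.736. With the 75th percentile taken over the probes detected on all arrays, the difference of Ticam1 on the P55 array was -0.002. For Tlr3 on the P55 array, scalings, filters, and probe rules gave differences between 0.085 (normexp correction) and 1.196 (quantile normalization). The lowest of these lay within the SD of repeated spots (0.166). With 1 array per age, the difference between the later arrays was not tested.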

How the results depend on the processing

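Mavs, Cd180, and Aim2 were at least 2-fold higher and Nfkbiz at least 2-fold lower than at P42 on both later arrays under all 10 alternatives that kept the 2-fold limit, while Tlr12 and Nlrp10 fell short with normexp correction. Several of these alternatives could not change such a call. Each of these genes had 1 probe and was well above background on all arrays, so the median over probes and the filters on dim probes left it unchanged. An exchange of the later arrays cannot alter a call made on both. The median over probes added Nfkb1 to the genes higher on both. With the scaling percentile taken only from probes detected on all arrays, 7 of the 50 genes were higher and 10 lower on the P55 array, with a median of -0.138, the median on the P69 array was 0.138, and between the later arrays 3 were lower with a median of -0.002. With median scaling, 22 were higher and 2 lower on the P55 array (median 0.793) and 18 were higher on the P69 array (median 0.864). Quantile normalization turned the median between the later arrays to 0.084, and normexp left 4 genes higher on the P69 array. Exchanging the later arrays gave 7 higher on P55, 11 higher on P69, and 5 higher and 3 lower between them, with a median of 0.171. The authors' table, which holds 24 of the genes and has these columns exchanged, gave the same 4 counts with medians of 0.746 for P69 and 0.448 between the later arrays. It holds the same signals as the scanner files, and each of its probes spans at least 1.0 (log2) between arrays. Its counts were thus largely fixed in advance, and its medians cover only genes that differ between arrays. Under these exchanges Ly86 turned to 0.214 on the P55 array in both, and Tlr3 on the P69 array to 0.491 and 0.493. At 10-fold, 0 genes were higher in any comparison, and 0, 1, and 0 were lower on P55, on P69, and between the later arrays. The cause was not tested beyond the exchange itself. No paired analysis was possible because each age has 1 array. The precision was limited by the number of arrays and, for Nlrp10, Aim2, Cd180, Tlr3, Tlr4, and Tlr11, by signals close to background.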

Other observations

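Further genes of the pathway list were looked at after their values were seen, and are given as values. The 3 genes of the linear ubiquitin chain assembly complex, which modifies the IKK complex, were at least 2-fold above P42 on the P55 array and short of that on the P69 array: Sharpin differed by 1.77 and 0.92, Rbck1 by 1.42 and 0.35, and Rnf31 by 1.04 and 0.11. Of the cytosolic RNA helicases besides Ddx58, Ifih1 was 1.21 and 0.85 above P42 and Dhx58 1.18 and 0.77. Trim25, the ubiquitin ligase that activates RIG-I, was 0.70 and 1.37 above P42. On the side of DNA sensing, Cgas, the enzyme that makes the cyclic dinucleotide sensed by STING, was below P42 by these arrays, with differences of -0.89 and -1.08, whereas Sting1 differed by 0.78 and 0.21. Zbp1, a sensor of nucleic acids in the Z form, differed by -1.26 and -0.90. Unc93b1, the chaperone that brings nucleic acid receptors such as TLR9 to endosomes, had levels of 4.72, 3.93, and 4.10. It differed by -0.79 and -0.62, both short of 2-fold. The endosomal receptors did not share its direction. Tlr9 differed by -0.86 and -1.10, Tlr7 by -2.36 and -0.04, and Tlr3 by 0.49 and, as a bound, -1.90. Tlr8 differed by 0.18 and 0.25, Tlr13 by 0.215 and 1.03, Tlr12 by 2.69 and 1.53, and Tlr11 by -0.26 and -3.36.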
